A study of Arabidopsis thaliana with 12 samples.

Results

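The light dependence of the wound response in Arabidopsis thaliana rosettes is the difference between 2 wound effects, that of wounding in the light and that of wounding in the dark. It was computed as the light wounded minus light intact value, less the dark wounded minus dark intact value, within each of 3 replicate experiments and then averaged. All 12 arrays of the series entered it. Of 22746 probe sets other than controls, the 13567 with a log2 value of at least 4 on at least 3 arrays were tested. The result is called the interaction below. A positive interaction means that wounding raised a transcript more, or lowered it less, in the light than in the dark.

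The light groups, intact or wounded, stood under 250 µmol photons m-2 s-1 of photosynthetically active radiation, and the dark groups, likewise intact or wounded, received none. Each of the 4 groups has 3 arrays. Plants grown in cycles of 10 h of light and 14 h of dark were first acclimatised for 30 min at 22 °C. Leaves were then crushed with a haemostat, in the dark under a safelight, and rosettes were collected 60 min later. Each array carried 1 RNA extract pooled from 15 to 17 plants, and each experiment held all 4 treatments. No genotype, accession or age is stated for any group in the sources used here, and no group was sampled at the start of the treatments, so a level that is higher in the light cannot be told apart from one that fell in the dark. With pooled whole rosettes, a change in the number of cells of one type cannot be told apart from a change in RNA per cell.

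Crushing a leaf sets off calcium and electrical signals and a burst of jasmonate, a fatty acid hormone made partly in the chloroplast, and within the hour the transcripts of calmodulin-like proteins, zinc finger and ERF transcription factors and enzymes of jasmonate synthesis and turnover accumulate. Light acts on leaf transcripts through photoreceptors, the circadian clock and the supply of sugar from photosynthesis, and dark leaves express genes of sugar starvation. Wall-loosening proteins such as expansins belong to growth, which wounding restrains.

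Array medians lay between 5.40 and 5.60 on the log2 scale, and 13061 to 13219 of the tested probe sets reached log2 4 on an array. Rosette identity was read from mesophyll markers: RCA, the activase of Rubisco, lay between 15.09 and 15.25 on all 12 arrays, and the photosystem I gene PSAE-1 between 14.57 and 14.99. The root marker PYK10, a beta-glucosidase, lay between 6.70 and 9.39 and passed in no contrast. Some control probe sets moved with a group. A GAPDH control averaged 13.38 in light intact and 13.28 in light wounded, against 12.87 in dark intact and 12.90 in dark wounded rosettes. An actin control gave 12.36, 12.12, 11.73 and 11.69 in the same order, and a ubiquitin control 14.57, 14.57, 14.55 and 14.64. The 25S ribosomal RNA control probe set averaged 9.62 ± 0.95 in dark intact rosettes, against 7.27 ± 0.33 in light intact, 7.36 ± 1.06 in light wounded and 7.57 ± 0.77 in dark wounded rosettes (SD, n = 3). Its own interaction was 1.30, 4.65 and 0.45 in experiments 1, 2 and 3. In a fit with that probe set as a covariate limma called no interaction (470 at an unadjusted p under 0.05), while the estimates of the 5 called probe sets described below were 1.55 to 2.18 for the 3 positive and -1.78 for both negative ones, and the median SE of the interaction went from 0.21 to 0.30.

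The wound response was large in both light environments, and the difference between the light and dark responses passed the test for 5 probe sets. The genes called were EXPB1, an expansin of the beta class that loosens cell walls, and the loci AT4G29610, AT5G38700 and AT3G27540, to which the annotation gives no further name. The other was probe set 256433_at, to which the annotation gives no gene. The interaction was positive for 3 (0.0221% of those tested) and negative for 2 (0.0147%). Positive were AT4G29610 (2.07 ± 0.16 on the log2 scale, SE), 256433_at (1.68 ± 0.19) and AT5G38700 (1.62 ± 0.18), and negative were EXPB1 (-1.87 ± 0.17) and AT3G27540 (-1.63 ± 0.20). These 5 are 0.0369% of the tested probe sets (limma with the experiment as a block, Benjamini-Hochberg adjusted p under 0.05, two-sided). At an unadjusted p under 0.05, 1102 probe sets passed, or 8.12%, of which 408 (3.01%) were positive and 694 (5.12%) negative. Without the block 2 were called, AT4G29610 and AT5G38700.

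By the same fit, wounding in the light changed 3699 probe sets (27.3%), 1560 of them upward (11.5%) and 2139 downward (15.8%). Wounding in the dark changed 2043 (15.1%), 1232 upward (9.08%) and 811 downward (5.98%). These contrasts share no arrays, and across the 13567 probe sets their wound effects correlated with a Pearson r of 0.88 and a Spearman rho of 0.70, as a description, since probe sets are not independent and experiments are shared. Upward calls made in both environments numbered 1074, which is 68.8% of those in the light and 87.2% of those in the dark. Downward calls made in both numbered 642, which is 30.0% of those in the light and 79.2% of those in the dark. A call in one environment alone does not show that the effects differed. Of 485 probe sets raised by wounding in the light only, 1 had a called interaction, AT4G29610, and of 1495 lowered in the light only, 1 did, EXPB1. Opposite calls were made for 3 probe sets, of which 2 were raised in the dark and lowered in the light and 1 the reverse, and none of these had a called interaction. None of the 156 raised or 168 lowered in the dark only was called for the interaction by limma, with 53 and 42 of them at an unadjusted p under 0.05 (all tested probe sets: 0.0369% called and 8.12% at that p). All these classes were formed from the 2 wound effects that make up the interaction, which favours low p-values in them, and their counts are a description.

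**Figure D1:**
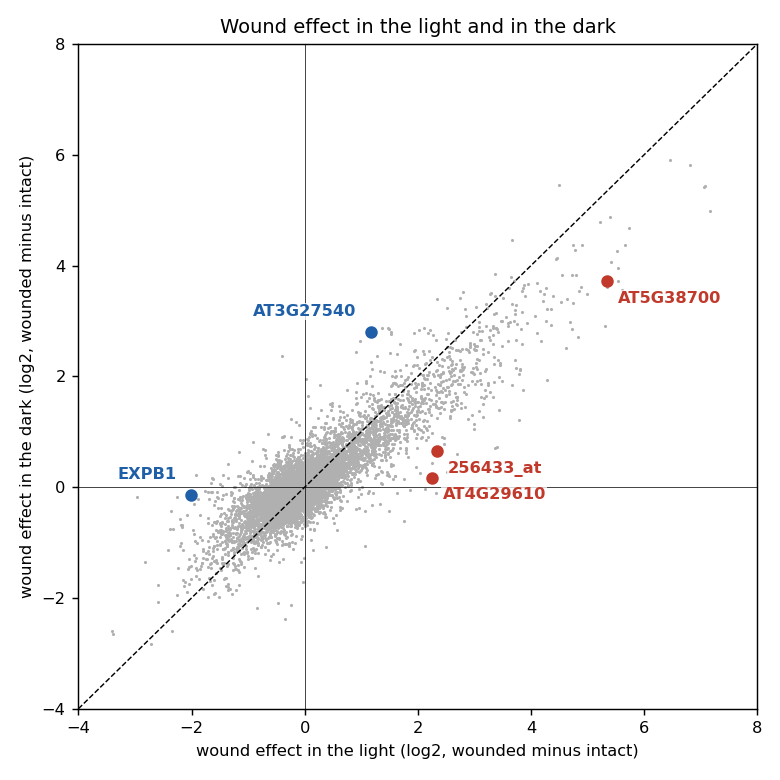
Wound effect in the light (x axis) against wound effect in the dark (y axis), both log2 of wounded minus intact, for the 13567 tested probe sets, with the dashed line marking equal effects and the 5 probe sets with a called interaction in colour and named. Most points follow the dashed line (r = 0.88), AT4G29610, 256433_at and AT5G38700 lie below it and EXPB1 and AT3G27540 above it.

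EXPB1 was high in light intact rosettes and low in the other groups. Its log2 values were 6.95, 6.51 and 6.17 on the light intact arrays of experiments 1, 2 and 3, and 4.77, 4.34 and 4.49 after wounding in the light. In the dark they were 4.50, 4.27 and 4.04 on the intact and 4.37, 4.00 and 4.02 on the wounded arrays. The light intact arrays lay above all other arrays, and the light wounded arrays overlapped with both dark groups. Wounding in the light lowered EXPB1 by 2.01 ± 0.12 (SE, limma adjusted p = 1.69e-05), and the change in the dark, -0.14 ± 0.12, did not pass (adjusted p = 0.497). The interaction was -2.05, -1.90 and -1.65 in the 3 experiments (95% interval -2.26 to -1.48, limma adjusted p = 0.00902), and without the block its adjusted p was 0.129. One of its 12 values lay under log2 4, the brightness threshold used here. The light effect in intact rosettes was 2.27 (limma adjusted p = 6.13e-06) and in wounded rosettes 0.41 (adjusted p = 0.0341).

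Further genes by the smallest p in the negative direction had not passed the interaction test. Like EXPB1, each had its highest value in light intact rosettes within each experiment. AT3G17640 had 5.35, 5.95 and 4.60 in light intact rosettes and 2.24, 2.24 and 2.56 in light wounded ones. Dark intact arrays gave 2.53, 2.32 and 2.18, and dark wounded arrays 2.17, 2.16 and 2.20. Its light intact arrays thus stood apart from the other 9, all of which lay under log2 4. Its interaction was -2.79 (95% interval -3.63 to -1.95, limma adjusted p = 0.0703), and -1.30 with values under 4 set to 4. AT4G22730 had 4.26, 4.89 and 4.57 in light intact rosettes, 3.00, 2.54 and 2.50 in light wounded ones, and 2.12 to 2.56 on the 6 dark arrays, with an interaction of -1.69 (limma adjusted p = 0.136) that was -0.57 with values under 4 set to 4. AT5G59130 differed more between experiments than between wounded and intact arrays: light intact arrays gave 7.66, 8.32 and 5.98, light wounded 6.17, 6.51 and 4.37, dark intact 4.16, 5.31 and 2.90, and dark wounded 4.13, 5.38 and 3.38. Within each experiment its light intact value was the highest, and its interaction was -1.81 (limma adjusted p = 0.114, and 0.999 without the block). Its light wounded arrays did not come down to the dark level. The light effect in wounded rosettes was 1.39 (limma adjusted p = 0.00101), against 0.41 for EXPB1.

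The locus AT4G29610 had the reverse layout, with the light wounded arrays alone above the rest. They gave 4.65, 4.83 and 4.51, against 2.43, 2.47 and 2.35 in light intact, 2.43, 2.35 and 2.41 in dark intact and 2.57, 2.77 and 2.37 in dark wounded rosettes. Wounding in the light raised it by 2.24 ± 0.11 (SE, limma adjusted p = 8.13e-06), and the difference in the dark was 0.17 ± 0.11 (adjusted p = 0.337). The interaction was 2.07, 1.94 and 2.20 in the experiments (95% interval 1.72 to 2.42, limma adjusted p = 0.00288). Of its 12 values, 9 lay under log2 4, and with all values under 4 set to 4 the interaction was 0.66 (limma adjusted p = 0.194), so that its size is that of dim deposited values. AT2G44580 was laid out alike at 4.24, 4.93 and 4.12 in light wounded rosettes and 1.99 to 2.80 on the other 9 arrays, with an interaction of 1.82 that did not pass (95% interval 1.13 to 2.50, limma adjusted p = 0.136) and was 0.43 with values under 4 set to 4.

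AT5G38700 rose in both environments and by more in the light. It was at 2.84, 2.80 and 2.78 in light intact and 2.81, 2.83 and 2.85 in dark intact rosettes. After wounding it reached 8.09, 8.11 and 8.25 in the light and 6.24, 6.72 and 6.69 in the dark, so the groups of wounded arrays did not overlap and the intact ones did. The rise was 5.34 ± 0.12 in the light (SE, limma adjusted p = 5.54e-08) and 3.72 ± 0.12 in the dark (adjusted p = 9.8e-07). In both environments the intact level is under the brightness threshold. The interaction was 1.82, 1.42 and 1.63 by experiment (95% interval 1.23 to 2.02, limma adjusted p = 0.0217), and 1.60 (adjusted p = 0.0176) with values under 4 set to 4. In wounded rosettes the light effect was 1.60 (limma adjusted p = 4.7e-05), and in intact rosettes it was -0.02 (adjusted p = 0.889).

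Similar values were seen for AT5G63130 and AT1G49450, which had not passed for the interaction. AT5G63130 gave 4.64, 5.33 and 5.41 in light intact and 4.68, 5.58 and 5.37 in dark intact rosettes. Wounding raised it to 8.18, 8.33 and 8.47 in the light and to 6.72, 7.04 and 6.82 in the dark. No array of this probe set was under log2 4, its interaction was 1.49, 1.54 and 1.61 by experiment, and the 3 wounded arrays in the light lay above those in the dark (95% interval 1.04 to 2.05, limma adjusted p = 0.0882, and 0.575 without the block). AT1G49450 gave 4.05, 3.85 and 3.77 in light intact, 8.11, 7.57 and 6.97 in light wounded, 3.45, 3.42 and 3.44 in dark intact and 5.66, 5.52 and 4.65 in dark wounded rosettes, an interaction of 1.82 (limma adjusted p = 0.136).

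AT3G27540 was lower in the dark in intact rosettes and at a similar level in both environments in wounded ones. Intact rosettes gave 7.24, 7.04 and 7.44 in the light and 5.24, 5.14 and 5.50 in the dark. Wounded rosettes gave 8.73, 8.21 and 8.30 in the light and 8.32, 7.89 and 8.09 in the dark, and these groups overlapped. The rise was 1.18 ± 0.14 in the light (SE, limma adjusted p = 3.58e-04) and 2.81 ± 0.14 in the dark (adjusted p = 2.21e-05). The interaction was -1.59, -1.57 and -1.72 by experiment (95% interval -2.07 to -1.18, limma adjusted p = 0.0364, and 0.129 without the block). The light effect was 1.94 in intact rosettes (limma adjusted p = 1.87e-05) and 0.32 in wounded ones (adjusted p = 0.122).

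The probe set 256433_at was high in the dark, and wounding in the light brought it close to the dark intact level. Light intact arrays gave 8.48, 8.90 and 8.29 and light wounded arrays 10.90, 11.17 and 10.61. Dark intact arrays gave 10.97, 11.35 and 10.98 and dark wounded arrays 11.58, 11.84 and 11.85. The light intact arrays lay under all other arrays, the light wounded and dark intact arrays overlapped, and the dark wounded arrays were the highest. Wounding raised it by 2.34 ± 0.13 in the light (SE, limma adjusted p = 1.35e-05) and by 0.65 ± 0.13 in the dark (adjusted p = 0.00931). The interaction was 1.80, 1.79 and 1.46 by experiment (95% interval 1.26 to 2.10, limma adjusted p = 0.0217, and 0.147 without the block). No value of it was under log2 4.

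**Figure D2:**
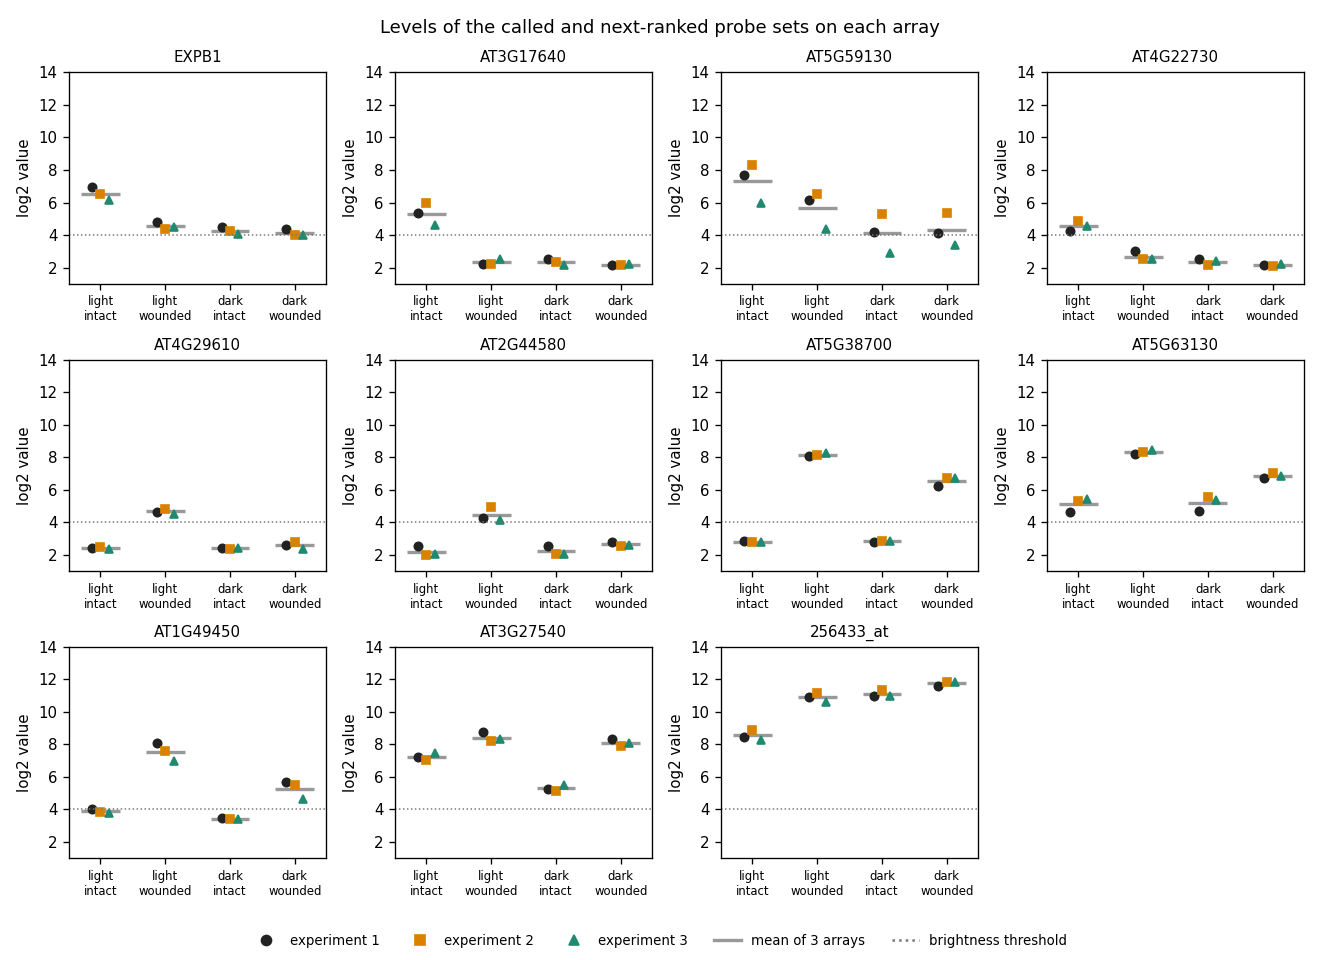
Log2 values of the 5 called probe sets and of the 6 named genes with the next smallest p on each of the 12 arrays, in 4 groups on the x axis of each panel, with a symbol per experiment, a grey bar at the mean of 3 arrays and a dotted line at the brightness threshold of log2 4. EXPB1, AT3G17640, AT5G59130 and AT4G22730 are highest in light intact rosettes, AT4G29610 and AT2G44580 in light wounded ones, AT5G38700, AT5G63130 and AT1G49450 rise with wounding in both, and AT3G27540 and 256433_at differ between light and dark more in intact than in wounded rosettes.

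Across all tested probe sets the interaction had a median of -0.06, and the median half-width of the 95% intervals was 0.47. A median of signed values does not give the size of the interaction. The interval lay within 1 log2 unit of 0 for 10751 probe sets (79.2%), and for these the data bound the interaction to less than a doubling or halving either way. This held for 458 of the 1074 probe sets that wounding raised in both environments and for 520 of the 642 that it lowered in both. An interaction of at least 1 either way was estimated for 298 probe sets, 181 positive and 117 negative, of which 5 were called and 244 had an unadjusted p under 0.05. The sign was the same in all 3 experiments for 4719 probe sets (34.8%), 1610 positive and 3109 negative, and for 259 of those 298. The 298 were picked by the mean of the same 3 values, which by itself favours a shared sign. Between experiments, the interaction correlated across probe sets with r = 0.31 for experiments 1 and 2, 0.12 for 1 and 3 and 0.37 for 2 and 3. The wound effect did so with r between 0.86 and 0.87 in the light and between 0.79 and 0.82 in the dark.

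Transcripts raised by wounding in both environments had larger median changes in the light in experiments 2 and 3, but not in experiment 1. The median rise of the 1074 was 1.43, 1.77 and 1.44 in the light in experiments 1, 2 and 3, and 1.57, 1.17 and 1.12 in the dark. Their median interaction was -0.13, 0.58 and 0.32, so its sign turned with the experiment. For the 642 lowered in both, the median change was -0.80, -0.94 and -0.85 in the light and -0.82, -0.68 and -0.72 in the dark, with median interactions of 0.05, -0.25 and -0.11. These classes were chosen by the wound effects that make up the interaction, and their medians are a description.

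**Figure D3:**
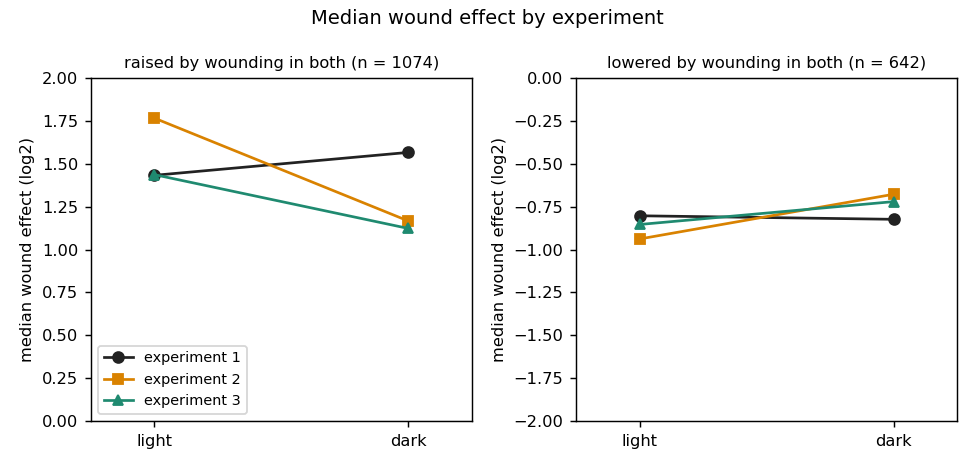
Median log2 wound effect in the light and in the dark (x axis) in each of the 3 experiments (lines), for the 1074 probe sets raised by wounding in both environments (left) and the 642 lowered in both (right). In experiment 1 the median rise was larger in the dark (1.57 against 1.43), and in experiments 2 and 3 it was larger in the light.

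Seen from the other side, the interaction is the light effect in wounded rosettes less that in intact ones. Light changed 5516 probe sets in intact rosettes (40.7%), with 3174 higher in the light (23.4%) and 2342 lower (17.3%). In wounded rosettes it changed 3922 (28.9%), 1926 higher (14.2%) and 1996 lower (14.7%). Called in both states were 1700 higher in the light, which is 53.6% of those in intact and 88.3% of those in wounded rosettes, and 1581 lower, which is 67.5% and 79.2%. The median light effect of the 1700 was 0.88 in intact and 0.72 in wounded rosettes, and that of the 1581 was -0.92 and -0.85. No probe set was called in opposite directions. By these classes, the 5 called probe sets were AT4G29610 and AT5G38700 among 226 higher in the light in wounded rosettes only, AT3G27540 among 1474 higher in intact ones only, EXPB1 among the 1700 and 256433_at among the 1581. The classes come from the same fit as the interaction.

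Genes of known wound and light pathways were read from 22 lists with 206 loci, of which 58 had a probe set with that single gene name and 57 were tested. EXPB1 was the only one of the 57 with a called interaction. The estimates were positive for 25 and negative for 32, and 9 of the 57 had an unadjusted p under 0.05, against 8.12% of all tested probe sets. The JAZ repressor, heat shock and reactive oxygen lists had no tested member and are not analysed here. The lists were written with earlier results of these data known, and where a list had no call its 2 brightest tested members come from the naming rule. Members named beyond these were chosen after their values were seen.

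Rapid wound, touch and stress regulators rose with wounding in both environments, all 5 of the 5 tested in each (all tested probe sets: 11.5% raised in the light and 9.08% in the dark), and none had a called interaction (1 at an unadjusted p under 0.05). The interaction estimates, as means of the 3 experiments, were positive for all 5 as deposited, with arrays centred and after quantile normalization, with a median of 0.54 (all tested probe sets: -0.06). In experiment 1 alone they were -1.15 for CML37, -0.53 for CML38, -1.05 for STZ and -0.48 for ORA47, against 0.76 for AT1G76640. ORA47 was also negative in experiment 2 (-0.84). CML37, a calmodulin-like calcium sensor, was at 4.96, 3.91 and 4.71 in light intact and 9.63, 9.52 and 9.15 in light wounded rosettes. It was at 3.65, 5.80 and 5.89 in dark intact and 9.48, 9.74 and 9.22 in dark wounded rosettes. Wounded arrays of both environments lay together, and among the intact arrays the dark one of experiment 1 was the lowest. Its interaction was -1.15, 1.67 and 1.10 by experiment, with a mean of 0.54 whose 95% interval runs from -1.13 to 2.22 (limma adjusted p = 0.888).

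The related sensor CML38 gave 8.84, 8.13 and 7.69 in light intact, 12.77, 12.45 and 12.26 in light wounded, 8.48, 10.93 and 10.36 in dark intact and 12.95, 13.31 and 12.49 in dark wounded rosettes. Its dark intact array of experiment 1 again lay with the light intact arrays, and the others lay above them. The interaction was 1.28 (95% interval -0.39 to 2.95, limma adjusted p = 0.703). AT1G76640, which the gene table names CML39, had the largest estimate of the list, 1.68 (95% interval 0.46 to 2.89, limma adjusted p = 0.404). It gave 5.66, 4.23 and 2.83 in light intact and 8.83, 8.53 and 6.77 in light wounded rosettes, against 4.05, 3.08 and 3.14 and then 6.47, 5.03 and 5.15 in the dark. Its light wounded arrays lay above all dark arrays. For STZ, a zinc finger repressor also known as ZAT10, and ORA47, an ERF family activator of jasmonate synthesis, the interaction was 0.37 (95% interval -0.95 to 1.69) and 0.20 (-0.98 to 1.38), with limma adjusted p of 0.904 and 0.952. STZ rose by 2.86 in the light and 2.49 in the dark, and ORA47 by 3.09 and 2.89.

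Of 3 tested WRKY factors, which bind W-box promoter elements in stress and defence, none was called for the interaction (1 at an unadjusted p under 0.05). WRKY22 had the largest estimate of all tested list members save one, 2.35 (1.47, 3.10 and 2.47 by experiment, 95% interval 1.24 to 3.45, limma adjusted p = 0.222). Light intact arrays gave 4.71, 4.12 and 4.47 and light wounded arrays 8.83, 8.57 and 8.74. Dark intact arrays gave 6.88, 8.57 and 8.18 and dark wounded arrays 9.54, 9.93 and 9.98. Light arrays lay below dark ones in intact rosettes, with a light effect of -3.45 (limma adjusted p = 1.06e-04), and this effect was -1.10 in wounded ones (adjusted p = 0.0398). WRKY6 rose in the light by 1.89 (limma adjusted p = 0.00431), against a change of 1.12 in the dark (adjusted p = 0.0701), and its interaction of 0.77 had a 95% interval from -0.39 to 1.93. WRKY53 passed in neither environment, with an interaction of 0.05 (95% interval -0.85 to 0.95).

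Jasmonate genes rose in both environments where they rose at all. OPCL1, a peroxisomal ligase that activates jasmonate precursors for beta-oxidation, was the single tested gene of synthesis. It was at 10.98, 10.89 and 9.98 in light intact, 12.87, 13.08 and 12.15 in light wounded, 9.42, 11.02 and 9.63 in dark intact and 12.07, 12.41 and 11.05 in dark wounded rosettes. It rose by 2.08 in the light and 1.83 in the dark, and its interaction was 0.26 (95% interval -0.62 to 1.13). Of 4 tested loci of jasmonate catabolism and conjugation, 3 rose in each environment (all tested probe sets: 11.5% raised in the light and 9.08% in the dark). None of the 4 had a called interaction, and their median was 0.40 (all tested probe sets: -0.06). AT2G38240 rose by 3.10 in the light and 2.05 in the dark (interaction 1.05, 95% interval -0.02 to 2.11, limma adjusted p = 0.618). AT5G05600 had an interaction of 0.50 (-0.40 to 1.40) and JRG21 one of 0.08 (-0.98 to 1.14). JMT, which methylates jasmonate, passed in neither environment (interaction 0.30, -0.60 to 1.20).

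Among jasmonate signalling genes, MYC4, a transcription factor that JAZ proteins hold back, fell in both environments, by 1.32 in the light and by 0.84 in the dark. It gave 8.80, 9.54 and 8.66 in light intact, 7.39, 8.05 and 7.62 in light wounded, 7.21, 7.77 and 7.34 in dark intact and 6.46, 6.96 and 6.37 in dark wounded rosettes. Its interaction was -0.47 (95% interval -0.85 to -0.10), which did not pass (limma adjusted p = 0.453). MYC3, its close relative, passed in neither environment (interaction -0.19, 95% interval -0.69 to 0.32). GRX480, a glutaredoxin that interacts with TGA factors, rose by 3.38 in the light and 3.14 in the dark. Its interaction was -1.69, 1.36 and 1.04 by experiment, with dark intact arrays at 6.66, 8.64 and 8.33 (mean 0.24, 95% interval -1.39 to 1.87, limma adjusted p = 0.959).

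**Figure D4:**
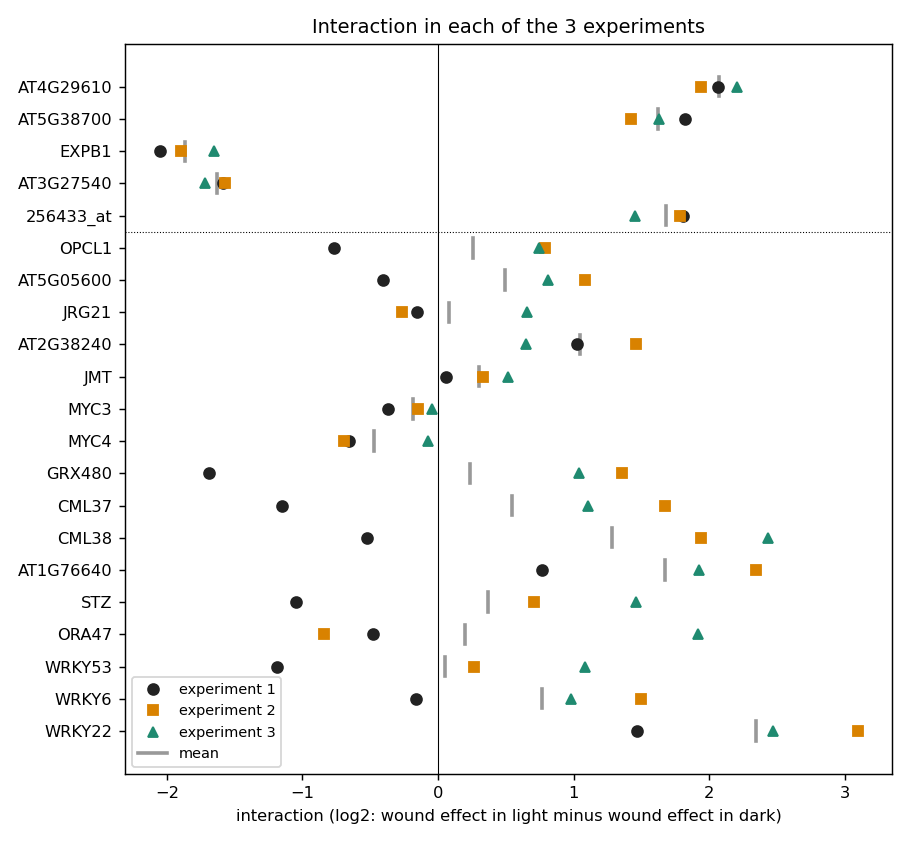
Interaction (x axis, log2) in experiments 1, 2 and 3 (symbols) and its mean (grey bar) for the 5 called probe sets, above the dotted line, and for the 16 tested genes of the jasmonate, rapid wound and WRKY lists below it. The called probe sets lie close together over the 3 experiments, EXPB1 for example from -2.05 to -1.65. The test favours a small spread over experiments, so this closeness comes with their selection. Experiment 1 lies lowest for most of the rapid wound and WRKY genes.

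Expansins and cell wall genes fell with wounding in the light for 3 of 4 tested and in the dark for 1 (all tested probe sets: 15.8% lowered in the light and 5.98% in the dark), and 1 of the 4, EXPB1, had a called interaction. All 4 estimates were negative under each of the 3 scalings, with a median of -0.63 (all tested probe sets: -0.06). EXPA8, an expansin of the alpha class, fell by 3.40 in the light and by 2.59 in the dark. Intact rosettes gave 7.69, 8.97 and 8.36 in the light and 7.48, 8.33 and 8.30 in the dark, and wounded ones 4.54, 5.16 and 5.14 in the light and 4.51, 5.99 and 5.84 in the dark. Light and dark arrays overlapped in both states, and the interaction was -0.81 (95% interval -1.37 to -0.25, limma adjusted p = 0.388). EXPA4, another alpha expansin, fell by 0.74 in the light (limma adjusted p = 0.0144), with an interaction of -0.41 (95% interval -0.98 to 0.17). TBL26, of a family of wall polysaccharide acetyltransferases, was higher in the light by 5.56 in intact and by 5.11 in wounded rosettes and passed for wounding in neither environment (interaction -0.45, -2.14 to 1.24).

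Of the 2 tested genes of dark and sugar starvation, neither had a called interaction. The locus AT3G15450 was at 9.16, 8.42 and 10.69 in light intact and 11.90, 11.57 and 11.78 in light wounded rosettes. In the dark it was at 13.51, 13.78 and 13.98 in intact and 13.59, 13.55 and 13.82 in wounded ones. Wounding in the light raised it by 2.32 (limma adjusted p = 0.0014) while all dark arrays stayed between 13.51 and 13.98, and its interaction was 2.67, 3.38 and 1.24 by experiment (mean 2.43, 95% interval 1.28 to 3.58, limma adjusted p = 0.225). AKINBETA1, a subunit of the SnRK1 energy-sensing kinase, was lower in the light by 3.09 in intact and by 2.59 in wounded rosettes and passed for wounding in neither environment (interaction 0.50, 95% interval -0.04 to 1.05).

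Genes of photosynthesis had narrow intervals around 0. The 4 tested genes of photosynthesis had interactions between -0.11 and 0.05: RCA 0.05 (95% interval -0.24 to 0.33), PSAE-1 -0.04 (-0.38 to 0.30), and the light-harvesting antenna genes LHCB4.1 0.03 (-0.26 to 0.32) and LHCB4.2 -0.11 (-0.41 to 0.19). These 4 intervals lie between -0.41 and 0.33. In chlorophyll synthesis, CHLM and AT1G74470 had 0.02 (-0.31 to 0.34) and 0.04 (-0.27 to 0.34). PORB, a light-dependent protochlorophyllide oxidoreductase, fell with wounding in both environments, by 1.16 and 0.96, with an interaction of -0.20 (-0.94 to 0.54).

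Light changed EXPB1, AT3G27540 and 256433_at in intact rosettes, as given above, and it also changed listed genes of the clock, light signalling and flavonoids that had no called interaction. The clock gene GI was higher in the light by 2.38 in intact and by 2.29 in wounded rosettes, with an interaction of -0.09 (95% interval -0.90 to 0.71). HYH, a bZIP factor of light signalling related to HY5, was higher by 1.74 and 1.30 (interaction -0.43, -1.26 to 0.39). AT3G52740 and AT3G44450, both in the light signalling list, were higher by 3.72 and 3.57 in intact and by 3.07 and 3.93 in wounded rosettes, with interactions of -0.65 (-1.82 to 0.51) and 0.36 (-0.69 to 1.41). The flavonol glycosyltransferases UGT78D1 and UGT78D2 had -0.47 (-1.07 to 0.14) and -0.28 (-0.76 to 0.21).

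Growth, storage and turnover lists had no called interaction, and the estimates of their tested members lay between -0.67 and 0.27. In the 8 autophagy genes tested, all of the ATG8 family of membrane-anchored autophagosome proteins, the interaction was negative for 8 as deposited and for 7 after quantile normalization, with a median of -0.28. ATG8D (-0.46, 95% interval -0.90 to -0.02) and APG8A, another name of ATG8A (-0.39, -0.77 to -0.01), had an unadjusted p under 0.05, and neither passed after adjustment by limma (0.580 and 0.593). The auxin-inducible GH3.3 and WES1, conjugating enzymes of the GH3 family, had -0.58 (-1.45 to 0.29) and -0.67 (-1.59 to 0.26). Cold and dehydration genes COR15A, COR15B and COR47 had 0.27, -0.16 and 0.05, starch and sugar transport genes APL3 and SWEET11 had -0.06 and -0.09, and the glucosinolate and tryptophan genes BCAT4 and AT2G04400 had -0.39 and 0.03. The reference genes GAPC2 and PEX4 had -0.15 and -0.07.

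Of the markers of other cell types, PYK10 of roots had an interaction of -0.10 (95% interval -1.23 to 1.04) and FMA, the guard cell factor FAMA, 0.49 (-0.05 to 1.04). TRY, a repressor of trichome fate, was at 7.90, 8.14 and 8.10 in light intact and 6.36, 7.14 and 6.20 in light wounded rosettes, and at 5.13 to 5.91 on the 6 dark arrays. Its light intact arrays were the highest, as for EXPB1, and its interaction was -1.11 (-1.97 to -0.25, limma adjusted p = 0.446).

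**Figure D5:**
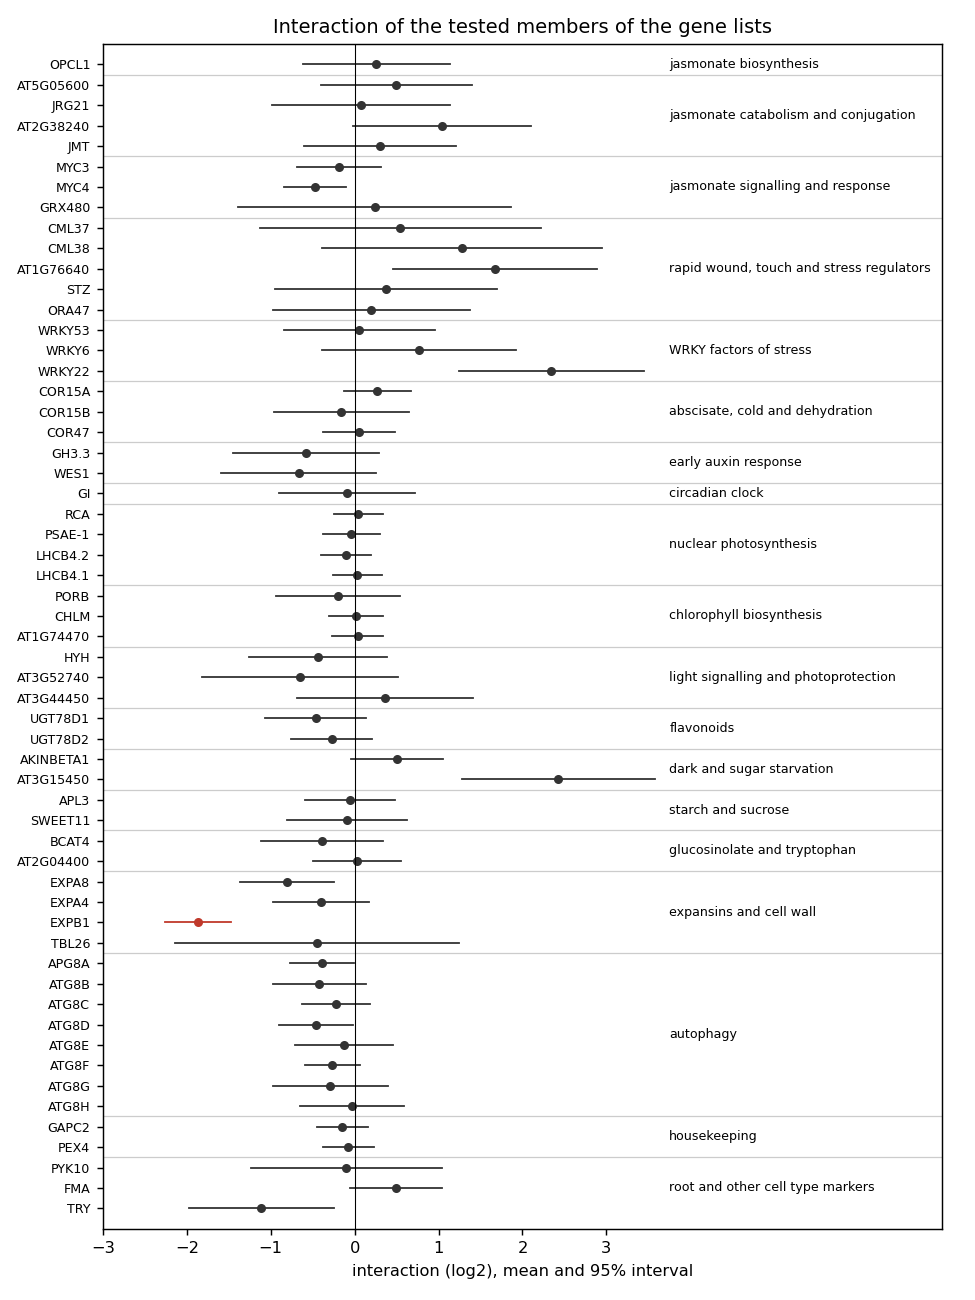
Interaction (x axis, log2) of the 57 tested list members, with the mean as a point and the 95% interval of limma as a line, grouped by list, and EXPB1, the one called, in red. The intervals are narrow around 0 for photosynthesis genes and wide for the rapid wound and stress regulators.

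Among probe sets with a gene, the 8 that wounding raised most and the 8 that it lowered most passed no interaction test. Of the 8 named genes with the largest average rise over both environments, none passed (limma adjusted p from 0.328 to 0.888, with 3 at an unadjusted p under 0.05), and all 8 estimates were positive, from 0.52 to 2.18. In experiment 1 alone the interaction was negative for AT5G52050, CML37, AT5G12340, AT1G19210 and AT1G22810 (from -1.16 to -0.07) and positive for the others. AT4G27654, with the largest average rise, was at 3.20, 3.34 and 3.28 in light intact and 10.26, 10.11 and 9.87 in light wounded rosettes, and at 3.05, 3.96 and 3.45 and then 9.49, 9.43 and 8.99 in the dark. The light wounded arrays lay above the dark wounded ones, and its interaction was 0.99 (95% interval 0.36 to 1.62, limma adjusted p = 0.328). AT5G52050, which the gene table names as the efflux carrier DTX50, had 0.55 (-0.64 to 1.74). AT1G22810 had the largest of the 8 estimates, 2.18 (-0.18 to 4.54), with dark intact arrays at 2.43, 6.31 and 6.17 and wounded arrays between 9.45 and 10.04 in both environments. Of the 8 with the largest average fall, none passed either, with 3 at an unadjusted p under 0.05, and all 8 estimates were negative, from -1.47 for AT3G23880 (limma adjusted p = 0.170) to -0.29 for AT3G15570. In experiment 1 alone the interaction was negative for EXPA8, AT3G62550 and AT3G23880 and positive for the others (from 0.04 to 0.51). These 16 were picked by their wound effects, with earlier results known. The result holds for this cut-off only. AT5G38700, which has a called interaction, rose by 5.34 in the light and 3.72 in the dark. AT5G12340, one of the 8 raised most, rose by little more, 5.54 and 3.73. Probe sets to which the annotation gives no gene were left out of this ranking, though some of them rose as much.

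Leaving out single arrays moved the count of called interactions between 1 and 41. Without dark intact replicate 1, 41 were called, 38 of them positive and all 5 of the above among them. WRKY22 (interaction 2.86, limma adjusted p = 0.0191), CML38 (2.16, 0.0306) and AT1G22810 (3.44, 0.0191) were among these. Without light intact replicate 3, 28 were called, 16 positive and 12 negative, again with all 5, and among them were AT3G15450 (2.99, limma adjusted p = 0.00767) and AT3G17640 (-3.15, 0.00724). Leaving out any of the other 10 arrays gave 1 to 7 calls, and leaving out a whole experiment gave none, with 597 to 1253 at an unadjusted p under 0.05. AT4G29610 was called in all 12 fits without 1 array, EXPB1 in 7, 256433_at in 4, AT5G38700 in 3 and AT3G27540 in 2, and each kept its direction in all 12. For AT4G29610 these fits rest on the 3 light wounded arrays alone being above log2 4, and so say nothing of the size of its change. These libraries were not treated as faulty, and no label sets them apart.

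Genes were also grouped by the stem of their symbol, and 32 such families had at least 5 tested members. None held a called interaction by limma, with 26 of 259 members at an unadjusted p under 0.05 (all tested probe sets: 0.0369% called and 8.12% at that p). Family medians ran from -0.36 for the 5 tested tubulin beta genes (TUB), which build microtubules, to 0.45 for the 6 tested calmodulin-like genes (CML). The 27 tested UGT glycosyltransferases spread from -1.69 to 1.52 around a median of -0.25.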

How the data were processed

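Labelled RNA of 12 rosette samples was measured on Affymetrix arrays. The authors deposited log2 values made with GCRMA, per the submitters' processing notes, with no version given. They run from 1.46 to 15.85, none is missing, and the table holds 22810 probe sets, of which 64 are controls. Without detection calls, probe sets with log2 of at least 4 on at least 3 arrays were kept (13567), and 9179 dim ones were set aside. The number of arrays limits the precision, since depth does not apply. For dark wounded replicate 2 the group was taken from its title and source name.

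Contrasts were fitted with limma 3.58.1 in R 4.3.3 (lmFit, eBayes defaults, residual df 6, prior df 3.40), with 1 mean per group and the experiment as a block, and p-values were adjusted by Benjamini-Hochberg over the 13567 probe sets of each contrast. Pairing comes from the series description, which puts all 4 treatments into each experiment. Deviations from the group means had r from 0.30 to 0.76 in 18 of 18 pairs of arrays with the same number. Arrays of different groups and numbers had r from -0.47 to -0.07. Deviations within a group cancel out, so these negative values follow from the positive ones and add no separate evidence. The fit was tested on simulated data with known changes.

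The annotation gave 1 gene to 13513 probe sets (7275 tested), several to 503 and none to 8730. Gene symbols were matched to TAIR10.1 RefSeq loci for 13436. Named genes are, per direction, called genes with the same sign in every experiment, filled up to 5 by smallest p, and from each list called members or the 2 brightest, and the 8 largest average wound effects each way. The members, lists and rules were chosen with earlier results of these data known. Alternatives tried were no replicate block, other filters and scalings, values under 4 set to 4, other moderation, the 25S control as a covariate, per-experiment differences and leaving out arrays or experiments. Sequences and coordinates were not used here.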

Additional observations from a re-analysis of the deposited data

Results flagged for a closer look

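The wound effect differed between light and dark by the interaction test of limma for 5 probe sets. The difference, on the log2 scale, was 2.07 for AT4G29610, 1.62 for AT5G38700, 1.68 for 256433_at, -1.87 for EXPB1 and -1.63 for AT3G27540. In data outside the comparisons, the 25S ribosomal RNA control probe set had a mean of 9.62 in dark intact rosettes, above its means in the other groups.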

How the results depend on the processing

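The count of called interactions was 5 with the replicate block. It was 2 with no replicate block and 2 with no filter on dim probe sets, 8 with values under log2 4 set to 4 (4 of them among the 5), and 0 with limma on the 3 per-experiment differences (1575 at an unadjusted p under 0.05). It was also 0 with the 25S control as a covariate (470), where the estimates were 2.18 for AT4G29610, 1.90 for AT5G38700, 1.55 for 256433_at, -1.78 for EXPB1 and -1.78 for AT3G27540 and the median SE was 0.30. Without 1 array or 1 experiment it ran from 0 to 41. The cause of these moves was not tested. The stricter filter, centring, quantile normalization and trend with robust moderation gave 4, 5, 4 and 7. The 2 calls without the block were among the 5, and the median SE rose from 0.21 to 0.29.

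For wounding in the light the count fell to 2015 with no replicate block (2384 to 3762 without 1 array), for wounding in the dark to 1102 (1249 to 2083), for light in intact rosettes to 3147 (4047 to 5356) and for light in wounded rosettes to 1666 (2409 to 4078). With the 25S control as a covariate, 205 were called for wounding in the dark and 1137 for light in intact rosettes. None of the 5 called interactions turned in sign. Of 76 named genes with no call, 31 turned under at least 1 alternative, all with estimates of at most 0.59 in size as reported, and none was called after turning. Dim values, pooled extracts and 3 experiments limit these results. The p-values rest on the spread left after group means and experiment blocks, shared by the 4 groups and moderated across probe sets.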
